A study of Mus musculus with 12 samples.

Results

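A set of 10 genes that encode amino acid and peptide transporters of the intestinal epithelium was followed in the ileum and colon of mice with and without epithelial Slc39a8. They are Slc6a19, Slc6a20a, Slc1a1, Slc3a1, Slc7a9, Slc7a8, Slc7a7, Slc3a2, Slc15a1 and Slc36a1, a list set by gene name, with earlier results of these data known. All 10 were found in the table of 53715 genes, and all 10 passed the filter on low counts, which left 16558 genes for testing. RNA-seq libraries were made from ileal or colonic mucosa of 8-week-old male C57BL/6J mice, with 3 libraries in each of 4 groups. Control mice carried the Slc39a8-fl/fl genotype according to the labels, although the methods of the study also count wild-type and Villin-Cre animals among the controls. Knockout mice carried Slc39a8-fl/fl:Villin-Cre (Slc39a8-IEC KO, called KO here), in which Cre is driven by the Villin promoter in intestinal epithelial cells. The study asked what the loss of Slc39a8, a transporter of manganese and other metal ions, does to the gut epithelium, and the design also allows ileum to be compared with colon.

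Dietary protein reaches the small intestine as free amino acids and short peptides, and enterocytes take up both. Carriers of the apical membrane draw neutral, acidic, cationic or imino acids from the lumen, and a proton-coupled carrier takes up di- and tripeptides. Exchangers of the basolateral membrane then pass amino acids on to the blood. Several of these carriers are heterodimers of a heavy chain, which brings the complex to the membrane, and a light chain, which does the transport. Uptake of this kind is a well-known function of the small intestine, while the colon is better known for the absorption of water, salt and short-chain fatty acids.

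The libraries held between 16749138 and 27903083 expected counts, which are estimates of reads per gene. Levels are given as CPM (counts per 1000000 counts of the library), scaled by the trimmed mean of M-values (TMM). The labels of the tissues were checked against marker genes. Fabp6, the ileal bile acid binding protein, was between 3362 and 7110 CPM in ileum and between 5.76 and 26.8 CPM in colon. Its colonic maximum was in colon KO replicate 3, and the next highest colonic value was 6.55 CPM. Car1, a carbonic anhydrase of colonocytes, was between 14884 and 27124 CPM in colon. Car1 was between 3.40 and 144 CPM in 5 ileal libraries and 2632 CPM in ileum KO replicate 2. The other ileal enterocyte markers were also lower in colon without overlap, though Slc10a2 kept 34.2% of its control ileal mean in control colon. Of the other colonocyte markers, Car4 and Slc26a3 were higher in colon without overlap, and Aqp8 overlapped. Saa1 went the other way, with control colon at 18.3% of control ileum, and Hoxb13 was at most 0.166 CPM. In ileum control replicate 3 and ileum KO replicate 1, the 6 smooth muscle markers summed to 34.2 and 20.2 CPM, against 1814 to 2643 CPM in the other 4 ileal libraries. The values that turned most on these libraries are given with and without them. The targeted gene, Slc39a8, was lower in every KO library than in every control library of the same tissue. It was 8.39, 5.22 and 6.59 CPM in control ileum against 4.35, 2.62 and 2.80 CPM in KO ileum, and 20.8, 20.5 and 20.1 CPM in control colon against 7.35, 11.5 and 7.93 CPM in KO colon.

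Transcripts of 9 of the 10 transporters were lower in colon than in ileum, in control and in KO mice alike, and Slc36a1 was near the same level in both tissues. All 6 colonic libraries lay below all 6 ileal libraries for these 9 genes, which 14.7% of the genes tested also did. By the edgeR quasi-likelihood test with Benjamini-Hochberg adjustment over all genes and a threshold of 0.1, the 9 genes were called lower in colon in control mice. Of all genes tested, 35.9% were called in this comparison and 19.6% were called lower in colon. The same 9 genes were called lower in KO mice, where 37.1% of genes were called and 20.0% were called lower in colon. With scaling by library size only, 4156 genes were called higher and 2102 lower in colon in control mice, against 2689 and 3251 with TMM, and the 9 transporters were lower under both. The median log2 fold change of the 10 transporters was -4.21 in control mice, beside a median of 0.02 over all genes tested. The summed level of the 10 transcripts was between 3315 and 4520 CPM in ileal libraries and from 249 to 290 CPM in colonic libraries. In bulk mucosa, fewer cells of a type and less RNA per cell cannot be told apart.

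**Figure D1:**
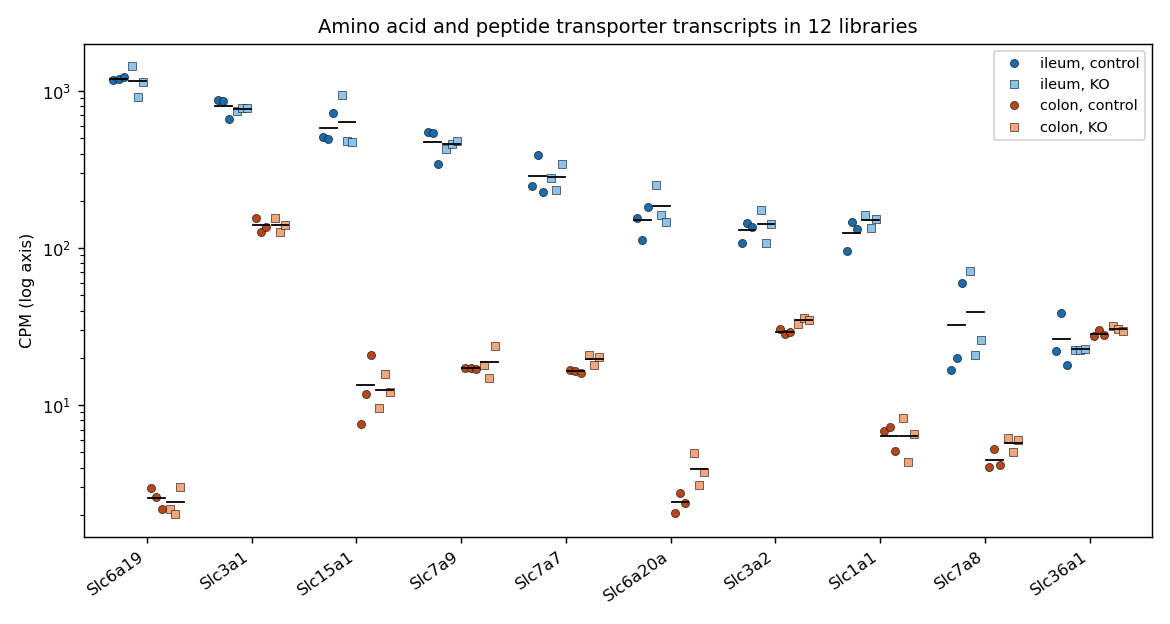
Level of each of the 10 transporter transcripts in each of the 12 libraries, in CPM on a log axis, with genes ordered by their mean in control ileum. Circles are control and squares KO libraries, blue is ileum and orange colon, and black lines are means of 3 libraries. For 9 genes every colonic point lies below every ileal point, and for Slc36a1 the tissues overlap.

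Slc6a19 (GRCm38 chr13:73679745-73704865, minus strand) encodes the main sodium-dependent carrier of neutral amino acids in the apical membrane of enterocytes. Its transcript was 1167, 1191 and 1237 CPM in control ileum and 1435, 916 and 1147 CPM in KO ileum. In colon it was 2.97, 2.59 and 2.17 CPM in control mice and 2.17, 2.02 and 3.03 CPM in KO mice. Every colonic library was thus far below every ileal library, and the genotypes overlapped in both tissues. The log2 fold change from ileum to colon was -8.86 (standard error 0.28, edgeR adjusted p = 2.5e-08) in control mice and -8.91 (standard error 0.28, adjusted p = 2.4e-08) in KO mice. Among the 16558 genes tested in control mice, Slc6a19 had rank 1 by p and rank 52 by fold change from the most lowered gene. The mean in control colon was 0.215% of that in control ileum. The same share was 0.142% for Fabp6 and 0.0343% for Apoa1, transcripts for which ileal enterocytes are known. Whether RNA from ileal tissue contributed to the colonic values was not tested.

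Slc6a20a (chr9:123634770-123678885, minus strand) encodes the sodium-dependent carrier of proline and other imino acids. It was 155, 113 and 183 CPM in control ileum and 251, 163 and 146 CPM in KO ileum, and the genotypes overlapped there. In colon it was 2.05, 2.78 and 2.40 CPM in control mice and 4.95, 3.11 and 3.78 CPM in KO mice, so the 3 KO libraries were the higher ones. The log2 fold change between tissues was -5.96 (standard error 0.30, edgeR adjusted p = 2.2e-07) in control mice. Of the 75-base windows of Slc6a20a transcripts, 22.18% were shared with other genes, chiefly its near copy Slc6a20b, so the division of reads between these genes is uncertain. Slc6a20b itself was between 3.11 and 12 CPM in ileum and between 0.104 and 0.563 CPM in colon.

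Slc1a1 (chr19:28835049-28913960, plus strand) encodes the carrier of the acidic amino acids glutamate and aspartate. It ranged from 96.5 to 162 CPM in ileum and from 4.35 to 8.29 CPM in colon, and a log2 change between them of -4.29 (standard error 0.26, edgeR adjusted p = 5.5e-07) in control mice. Its exons overlap an antisense gene, 4430402I18Rik, which was at most 2.09 CPM in any library.

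Slc3a1 (chr17:85028376-85064236, plus strand) and Slc7a9 (chr7:35448796-35466036, plus strand) encode the heavy and the light chain of the apical exchanger that takes up cystine and the cationic amino acids lysine, arginine and ornithine. Slc3a1 was 873, 867 and 668 CPM in control ileum and 749, 777 and 783 CPM in KO ileum. In colon it was 155, 127 and 136 CPM in control mice and 155, 126 and 140 CPM in KO mice. The tissues did not overlap, the log2 change being -2.53 (standard error 0.15; edgeR, adjusted p = 6.5e-07) in control mice. Of its transcript windows, 23.99% were shared with the antisense gene Prepl, which was between 27.5 and 40.9 CPM in all libraries, and strand use in counting is not stated. Slc7a9 was 547, 539 and 341 CPM in control ileum and 427, 463 and 483 CPM in KO ileum. It fell to 17.2, 17.2 and 17.1 CPM in control colon and 18, 15.0 and 23.7 CPM in KO colon, a log2 fold change of -4.79 (standard error 0.23, edgeR adjusted p = 1.6e-07) in control mice. The light chain was therefore lowered further than the heavy chain with which it pairs.

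At the basolateral membrane, Slc7a7 (chr14:54369442-54417780, minus strand) and Slc7a8 (chr14:54722209-54781946, minus strand) encode light chains that pair with the heavy chain encoded by Slc3a2 (chr19:8706882-8723369, minus strand). Slc7a7, the light chain of the exchanger that exports cationic amino acids, ranged from 227 to 392 CPM in ileum and from 16.0 to 20.8 CPM in colon. Its log2 fold change was -4.13 (standard error 0.23, edgeR adjusted p = 3.5e-07) in control mice. Of the 75-base windows of Slc7a7 transcripts, 4.46% were shared with the antisense gene Oxa1l, and Slc7a7 counts were fractional in 12 libraries. Slc3a2, which also serves other light chains and is found in most cell types, ranged from 108 to 174 CPM in ileum and from 28.6 to 36.1 CPM in colon. Its log2 fold change in control mice was -2.14 (standard error 0.17, edgeR adjusted p = 4.7e-06).

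Slc7a8, the light chain of an exchanger of neutral amino acids, varied most within ileum. It was 16.8, 20.1 and 59.7 CPM in control ileum and 71.5, 20.8 and 26.1 CPM in KO ileum. The highest value of each genotype was in the library with few muscle transcripts. In colon Slc7a8 was between 4.04 and 6.17 CPM, and the log2 fold change in control mice was -2.84 (standard error 0.55, edgeR adjusted p = 0.0026). Without these 2 ileal libraries it was -2.06 in control mice (edgeR adjusted p = 6.4e-06) and -2.02 in KO mice.

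Slc15a1 (chr14:121459621-121505252, minus strand) encodes the proton-coupled carrier of di- and tripeptides. It was 512, 494 and 726 CPM in control ileum and 950, 479 and 472 CPM in KO ileum. Here too the libraries with few muscle transcripts were the highest of their groups. In colon it was 7.63, 11.7 and 21 CPM in control mice and 9.61, 15.7 and 12.1 CPM in KO mice. The log2 fold change between tissues was -5.42 (standard error 0.45, edgeR adjusted p = 5.7e-06) in control mice and -5.24 without the 2 ileal libraries.

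Slc36a1 (chr11:55204350-55236330, plus strand) encodes a proton-coupled carrier of small neutral amino acids that is found in the apical membrane and in lysosomes. It was 22, 38.7 and 17.9 CPM in control ileum, 22.5, 22.6 and 22.9 CPM in KO ileum, 27.4, 29.9 and 28.0 CPM in control colon and 31.7, 30.4 and 29.5 CPM in KO colon. All colonic libraries were thus above 5 of the 6 ileal libraries, and ileum control replicate 2 was above all. The log2 fold change between tissues was 0.12 (95% interval -0.37 to 0.61, edgeR adjusted p = 0.722) in control mice and 0.43 (95% interval -0.06 to 0.92, adjusted p = 0.174) in KO mice. The control value depended on single libraries. Without ileum control replicate 2 it was 0.51 and passed the threshold (edgeR adjusted p = 0.016), and without ileum control replicate 3 it was -0.11. Slc36a1 in KO mice passed the threshold in some fits as well, at 0.43 without ileum control replicate 2 (edgeR adjusted p = 0.017) and 0.43 without ileum control replicate 3 (adjusted p = 0.077).

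**Figure D2:**
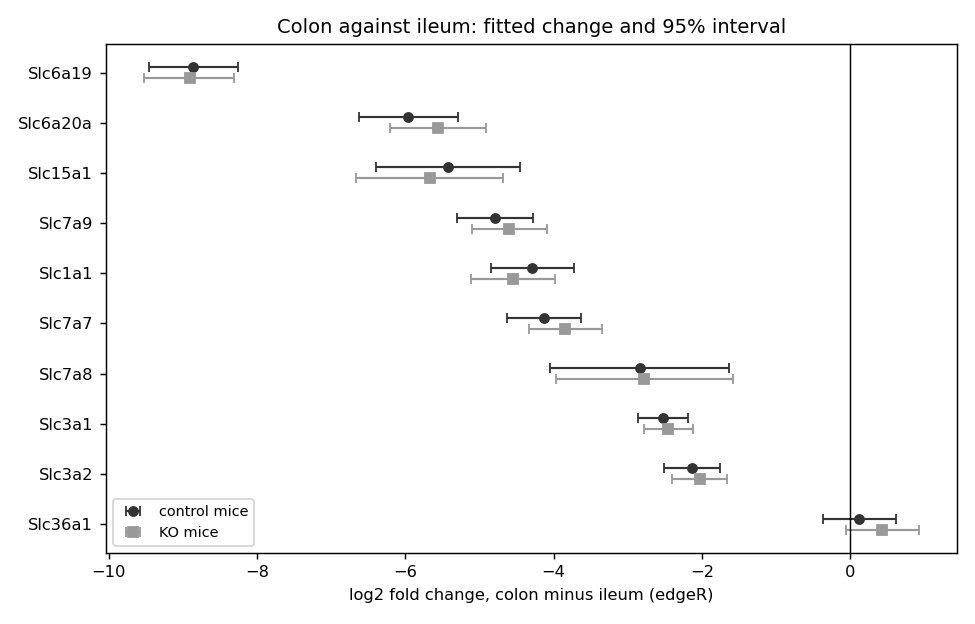
Fitted log2 fold change from ileum to colon of each transporter, with its 95% interval, in control mice (dark circles) and KO mice (grey squares). The values run from -8.86 for Slc6a19 to 0.12 for Slc36a1 in control mice, and only the intervals of Slc36a1 include 0.

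An exact two-sided permutation test, in which tissue labels were exchanged within each genotype, gave p = 0.005 for each of the 9 lowered genes. This is the smallest p that its 400 arrangements allow. For Slc36a1 the same permutation test gave p = 0.12. In all 24 alternative fits, the 9 genes were called lower in colon in control mice and in KO mice. The 8 epithelial markers, such as Epcam and Vil1, had a mean log2 level that was lower in colon by a difference of -1.13. Relative to that mean, the 9 genes were still lower in colon, by log2 differences from -7.50 for Slc6a19 to -0.92 for Slc3a2. The scale rests on markers that fell by unequal log2 fold changes in control mice, from -0.58 for Krt8 to -1.96 for Vil1. Slc36a1 was higher in colon on this relative scale, with a log2 difference of 1.43 and no overlap between tissues. Each of these 10 differences had an exact permutation p = 0.005.

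The makeup of the set differed between the tissues. Levels of different genes can be compared per kilobase (kb) of exon. Per kb of the joined exons of each gene, Slc3a1 was the most abundant of the 10 transcripts in both tissues and did not overlap the next gene in either. Its medians were 343 CPM per kb in ileum and 60.6 CPM per kb in colon. Slc6a19 followed in ileum with a median of 236 CPM per kb, and then Slc7a9 with 177 and Slc15a1 with 103. In ileum the ranges over libraries overlapped between Slc6a19 and Slc7a9, between Slc7a9 and Slc15a1 and between Slc15a1 and Slc7a7. In colon the second place was held by Slc3a2 with a median of 9.01 CPM per kb, and Slc6a19 was in the last place with 0.475 CPM per kb. Colonic ranges overlapped between Slc3a2 and Slc7a9 and between Slc6a19 and the next gene up, Slc6a20a. As a share of the summed level per kb of the 10 genes, Slc3a1 was between 27.4% and 35.6% in ileal and between 63.0% and 70.0% in colonic libraries. The share of Slc6a19 ran from 19.0% to 24.7% in ileum but only from 0.424% to 0.621% in colon. Slc36a1 held 0.319% to 0.604% in ileum and 4.99% to 6.15% in colon. Slc1a1 is understated on this scale if its longest transcript is the main one, since its joined exons span 8257 bases and that transcript 3800 bases. Slc6a19 also rises per kb of its longest transcript, to means of 286 and 278 CPM per kb in control and KO ileum. Slc3a1 stays at 353 and 339, and its lack of overlap with Slc6a19 in ileum holds for joined exons only. The shares depend on the choice of length too.

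Heavy and light chains did not change in step for Slc3a1 with Slc7a9 and for Slc3a2 with Slc7a7, while Slc3a2 with Slc7a8 showed no clear difference. The ratio of Slc3a1 to Slc7a9, taken per kb, was 1.88, 1.89 and 2.31 in control ileum and 2.07, 1.98 and 1.91 in KO ileum. In colon it was 10.7, 8.73 and 9.33 in control mice and 10.1, 9.90 and 6.95 in KO mice, with no overlap between the tissues. The log2 difference in this ratio was 2.17 (exact permutation p = 0.005). The ratio of Slc3a2 to Slc7a7 was 0.345 to 0.589 in ileum and 1.49 to 1.87 in colon, a log2 difference of 1.87 (exact permutation p = 0.005). So the heavy chain transcript was below that of Slc7a7 in ileum and above it in colon. For Slc3a2 to Slc7a8 the tissues overlapped, with ratios from 3.27 to 10.2 in ileum and from 7.60 to 10.7 in colon, and a log2 difference of 0.43 (exact permutation p = 0.285). The lowest ileal ratios of this pair, 3.27 and 3.45, were in the libraries with few muscle transcripts. Without these 2 libraries its log2 difference was -0.01 (exact permutation p = 0.86), and those of Slc3a1 to Slc7a9 and Slc3a2 to Slc7a7 were 2.23 and 2.06 (exact permutation p = 0.01 each, the smallest that 100 arrangements allow). None of the 3 ratios differed between genotypes beyond the spread, with log2 differences from -0.15 to 0.04 and exact permutation p from 0.525 to 0.75.

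**Figure D3:**
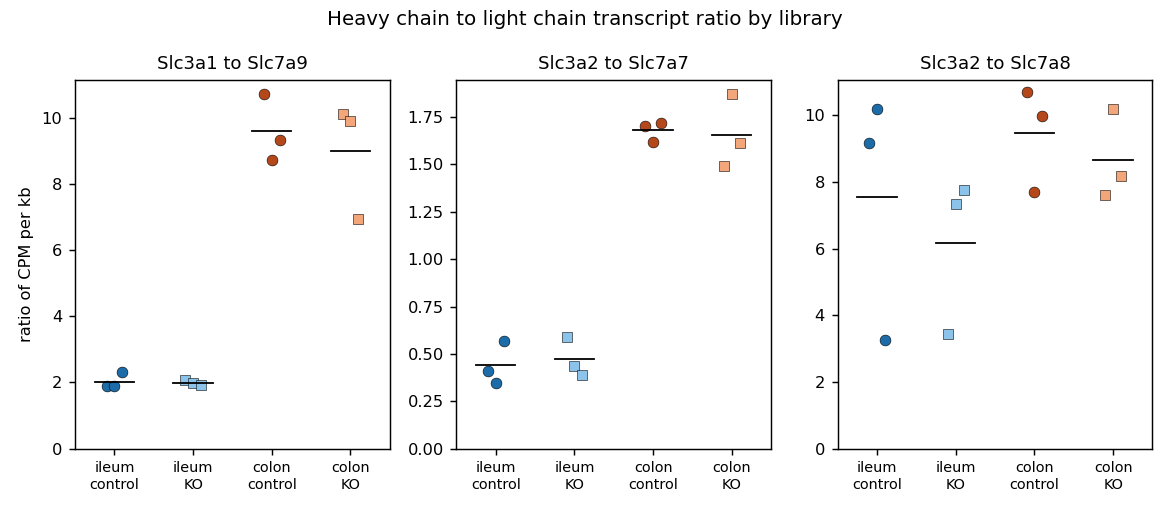
Ratio of heavy chain to light chain transcript in each library, from CPM per kb, for the cystine and cationic amino acid exchanger (left) and the basolateral exchangers (middle and right). Points are libraries and black lines are means of 3 libraries. Colonic ratios lie above ileal ratios for Slc3a1 to Slc7a9 and Slc3a2 to Slc7a7, and the tissues overlap for Slc3a2 to Slc7a8.

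Because most of the set moved together between tissues, the promoters were read from RefSeq (GRCm38.p6), which held 15 promoters for the 10 genes, each with 250 bases before and 50 after a transcript start. Motifs of factors active in enterocytes were searched on both strands: CAAAGTCCA for HNF4, TTTATGG for CDX, and TGATGNAAT for the composite ATF4 site. Of 32851 mouse promoters of the same length, 0.475%, 2.75% and 0.965% held them in this order. Among the transporters there was 1 match, an HNF4 motif in Slc3a1 whose first base was at -39 from the start. The E-box CACGTG, chosen after the sequences were seen, occurred in Slc36a1 at -31 and -3, where the second match runs across the start. It was found in 7.15% of all promoters and at 2 or more places in 0.594%. The 250 bases before the start are shown for the most lowered gene, for the gene with the HNF4 match and for the gene that was not lowered. Capitals mark the HNF4 match in Slc3a1 and the first E-box in Slc36a1, and the Slc6a19 window holds none of these motifs. They lie at chr13:73692637-73692886 (minus strand), chr17:85028097-85028346 (plus strand) and chr11:55204090-55204339 (plus strand).
Slc6a19: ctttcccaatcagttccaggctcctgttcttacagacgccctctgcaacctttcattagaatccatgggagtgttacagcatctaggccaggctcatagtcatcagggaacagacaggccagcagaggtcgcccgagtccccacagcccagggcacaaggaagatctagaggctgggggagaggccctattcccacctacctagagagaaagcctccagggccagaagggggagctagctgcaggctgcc
Slc3a1: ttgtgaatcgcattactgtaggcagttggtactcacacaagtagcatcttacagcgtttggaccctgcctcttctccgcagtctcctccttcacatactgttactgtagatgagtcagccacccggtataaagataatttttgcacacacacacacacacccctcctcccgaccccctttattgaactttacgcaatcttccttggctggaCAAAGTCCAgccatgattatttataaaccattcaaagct
Slc36a1: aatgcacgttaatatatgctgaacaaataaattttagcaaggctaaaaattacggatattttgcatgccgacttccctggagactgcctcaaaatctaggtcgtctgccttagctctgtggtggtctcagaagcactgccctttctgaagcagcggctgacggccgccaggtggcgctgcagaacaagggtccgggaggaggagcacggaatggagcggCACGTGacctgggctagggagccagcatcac

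Of the factors themselves, Hnf4g was lower in colon, at 224 ± 66.4 CPM in control ileum and 31.7 ± 11.6 CPM in control colon (SD, n = 3), and the log2 fold change was -2.82 (standard error 0.29, edgeR adjusted p = 2.6e-05). Hnf4a was lowered less, its log2 fold change being -0.76 (edgeR adjusted p = 0.007, standard error 0.17). Cdx1, a factor of intestinal identity, was higher in colon by 0.59 (standard error 0.22, adjusted p = 0.068). Cdx2 did not pass the test between tissues, with a log2 fold change of 0.15 (edgeR adjusted p = 0.702).

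Transcripts of proteins known to associate with Slc6a carriers were measured as well. Anpep, an aminopeptidase of the brush border, was 7333 ± 764 CPM in control ileum and 7.19 ± 3.41 CPM in control colon (SD, n = 3). Its log2 fold change in control mice was -9.99 (standard error 0.93, edgeR adjusted p = 1.4e-05). In KO colon Anpep was 6.36, 3.99 and 35.9 CPM. Cltrn, a partner known from kidney, was at most 0.596 CPM in any library and was not tested.

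A further 42 transporters of amino acids and peptides served for comparison, of which 32 passed the filter. Between tissues in control mice, 17 of the 32 were called, 10 lower and 7 higher in colon, and the median log2 fold change was -0.02. Of all genes tested, 35.9% were called and 19.6% were called lower in colon. The largest decreases were in Slc6a18, Slc7a15 and Slc16a10. Slc6a18, a close relative of Slc6a19, was at 12 ± 4.86 CPM (SD, n = 3) in control ileum and had no count in any of the 6 colonic libraries, which makes it at least 82.1-fold higher in ileum against a floor of 3 counts per library. Slc7a15, a light chain of the same family as Slc7a9, was 77.1 ± 23.1 CPM in control ileum and 0.359 ± 0.0903 CPM in control colon. Slc16a10, a basolateral carrier of aromatic amino acids, was 79.0 ± 21.8 and 3.96 ± 0.837 CPM. Among the 7 genes called higher, the largest increases were in Slc38a11, Slc38a4 and Slc1a4. Slc6a15, Slc6a14 and Slc6a17 had larger log2 fold changes than Slc38a4, at 1.86, 1.67 and 1.52, but were not called (edgeR adjusted p = 0.13, 0.221 and 0.327). Of these, Slc6a14 was abundant in colon, at 1343 to 2336 CPM. Slc1a4, a carrier of small neutral amino acids, was 7.24 ± 4.67 CPM in control ileum and 17.1 ± 3.04 CPM in control colon, and the log2 fold change was 1.23 (standard error 0.40, edgeR adjusted p = 0.041). Slc38a11 and Slc38a4 averaged at most 1.65 CPM in the control groups.

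Of 14 genes of the amino acid stress response governed by Atf4, 10 were called between tissues in control mice, 8 lower and 2 higher in colon, beside 35.9% of all genes called and 19.6% called lower. The largest decreases were in Trib3 (log2 fold change -4.48, edgeR adjusted p = 8.8e-05), a pseudokinase induced by stress, in Psat1 (-1.67, adjusted p = 0.0015), an enzyme of serine synthesis, and in Mthfd2 (-1.53, adjusted p = 0.0098), a mitochondrial enzyme of folate metabolism. Nupr1 (3.79, adjusted p = 1.1e-06) and Vldlr (3.07, adjusted p = 5.8e-05) were the 2 higher genes.

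No transporter of the set passed the threshold between KO and control mice. By edgeR, 0 of the 10 genes were called between KO and control mice over both tissues, in ileum alone, in colon alone, or in the test of whether the genotype effect differs between tissues. The same counts were 0 by DESeq2 and by limma-voom. Over all genes, 0% were called by edgeR in each of these comparisons, and the smallest edgeR adjusted p over both tissues was 0.382. The targeted gene Slc39a8 was thus not called by edgeR either, although its genotypes did not overlap in either tissue. The counts of 0 therefore do not show that the transporters were unchanged. DESeq2 called 0.0143% of genes over both tissues, 0.00715% in ileum, 0% in colon and 0.00357% for the difference between tissues, and limma-voom called 0.00604% over both tissues and in ileum and 0% in colon and for the difference. Log2 fold changes over both tissues ran from -0.06 for Slc6a19 to 0.48 for Slc6a20a, with a median of 0.08 beside a median of 0.00 over all genes tested. At an unadjusted p under 0.05, edgeR and DESeq2 each counted 1 transporter over both tissues and 1 in colon, namely Slc6a20a, and edgeR counted 0 in ileum and 0 for the difference between tissues. Of all genes, 3.87% fell under this edgeR limit over both tissues, 2.33% in colon, 1.52% in ileum and 1.02% for the difference between tissues. By limma-voom 0 of the 10 genes did.

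**Figure D4:**
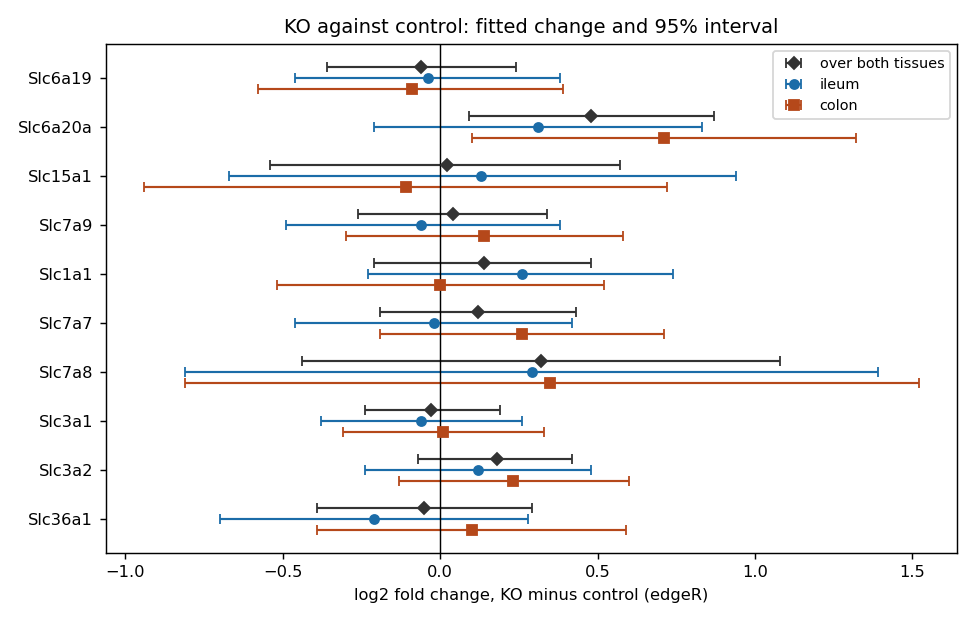
Fitted log2 fold change from control to KO of each transporter, with its 95% interval, over both tissues (black diamonds), in ileum (blue circles) and in colon (orange squares). The intervals that leave out 0 are those of Slc6a20a over both tissues (0.48) and in colon (0.71).

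Slc6a20a was the transporter with the largest difference between genotypes. Its log2 fold change in KO mice was 0.48 over both tissues (95% interval 0.09 to 0.87, edgeR adjusted p = 1) and 0.71 in colon (95% interval 0.10 to 1.32, edgeR adjusted p = 1). In ileum it was 0.31 (95% interval -0.21 to 0.83). The difference between the tissues in this effect was 0.40 (95% interval -0.40 to 1.19). An exact permutation test with genotype labels exchanged within tissues gave p = 0.045, and p = 0.055 with a pseudocount of 2 CPM in place of 0.5. Neither permutation p was adjusted for the number of transporters tested. In colon the 3 KO libraries were above the 3 control libraries for Slc6a20a, for Slc7a7 and for Slc3a2, and in no other gene of the set were the genotypes apart. Of all genes tested, 6.98% had KO above control without overlap in colon. Slc7a7 was 16.8, 16.6 and 16.0 CPM in control and 20.8, 18.1 and 20.3 CPM in KO colon, and Slc3a2 was 30.5, 28.6 and 29.1 CPM in control and 33.1, 36.1 and 34.7 CPM in KO colon. Their colonic log2 fold changes were 0.26 (95% interval -0.19 to 0.71) and 0.23 (95% interval -0.13 to 0.60). With 3 libraries against 3, the exact permutation p cannot go below 0.1 in a single tissue. In ileum no transporter had separate genotypes, and 3.70% of all genes did.

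The intervals set how large a genotype effect the data leave room for. Over both tissues the interval was narrowest for Slc3a1, from -0.24 to 0.19 on the log2 scale, and for Slc3a2, from -0.07 to 0.42. For Slc6a19 it was -0.36 to 0.24. The widest intervals were those of Slc7a8, from -0.44 to 1.08, and Slc15a1, from -0.54 to 0.57. Without the 2 ileal libraries with few muscle transcripts, the interval was 0.09 to 0.62 around 0.35 for Slc7a8 (edgeR adjusted p = 0.403) and -0.56 to 0.36 around -0.10 for Slc15a1. The interval of Slc7a8 thus left out 0 in that fit, though the adjusted p did not pass the threshold. Among the 32 other transporters tested, edgeR called 0 between genotypes over both tissues, and 1, Slc38a10, had an unadjusted p under 0.05 (log2 fold change 0.22, edgeR adjusted p = 1). Of the 14 Atf4 genes, edgeR and DESeq2 called 0 in any genotype comparison. At an unadjusted p under 0.05 edgeR counted 0 over both tissues and in ileum, 2 in colon and 1 for the difference between tissues, and DESeq2 also counted 1 over both tissues. Named after their values were seen, they are Asns, an asparagine synthetase, with log2 fold changes by edgeR of 0.47 in colon and 0.71 for the difference, and Atf3, a stress-induced transcription factor, with -0.94 in colon and, by DESeq2, -0.57 over both tissues. Anpep, Hnf4a, Hnf4g, Cdx1 and Cdx2 were not called either, and Cdx1 had an unadjusted p under 0.05 (log2 fold change 0.41, edgeR adjusted p = 1). DESeq2 and limma-voom also called 0 of the other transporters and 0 of the Atf4 genes over both tissues.

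Within ileum, the 2 libraries with few muscle transcripts stood apart from the other 4 in part of the set. Slc6a19, Slc6a20a, Slc7a8 and Slc15a1 were higher in both than in any of the other 4, and Slc3a1 and Slc7a9 were lower. Of all genes tested, 50.4% were separated in this way and 23.2% were higher in the 2 libraries. The ratio of the means was 3.13 for Slc7a8, 1.71 for Slc15a1, 1.51 for Slc6a20a, 1.21 for Slc6a19, 0.859 for Slc3a1 and 0.756 for Slc7a9. The count of 6 of 10 separated transporters is near the 50.4% of all genes. Slc6a14, a carrier of neutral and cationic amino acids that is not a member of the set, was 60.8 and 35.4 CPM in these libraries, between 627 and 1242 CPM in the other 4 ileal libraries and between 1343 and 2336 CPM in colon. It was picked out after its values were seen. The colonocyte markers summed to 236 and 279 CPM in the 2 libraries and to between 1394 and 3532 CPM in the other 4. In those 4 the larger part of the sum was Saa1, or Car1 in ileum KO replicate 2. Saa1 was 4.76 and 18.6 CPM against 438 to 2237 CPM, but only 43.0 to 230 CPM in colon. Car1 and Car4 were lower in the 2 libraries without overlap, while Slc26a3 overlapped, at 143 and 151 CPM against 139 to 266 CPM. Stroma markers summed to 43.3 and 40.8 CPM against 313 to 599 CPM, and markers of enteric neurons and glia to 1.19 and 1.31 CPM against 10.3 to 15.8 CPM. Macrophage markers summed to 51.1 and 43.5 CPM against 83.1 to 129 CPM, and plasma cell markers to 814 and 845 CPM against 1126 to 3183 CPM. The B cell markers Ms4a1, Cd79a and Cd79b were instead higher without overlap, Ms4a1 at 9.60 and 11.9 CPM against 0.611 to 0.758 CPM. The T cell markers Cd3e, Cd3d and Cd8a were lower without overlap, Cd3e at 2.80 and 3.10 CPM against 5.92 to 10.1 CPM, and Cd4 overlapped. The 8 epithelial markers summed to 20530 and 21248 CPM against 21222 to 25222 CPM. The part of these other cell types or of the position along the gut in the transporter values was not tested. One of the 2 libraries is control and the other KO.

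**Figure D5:**
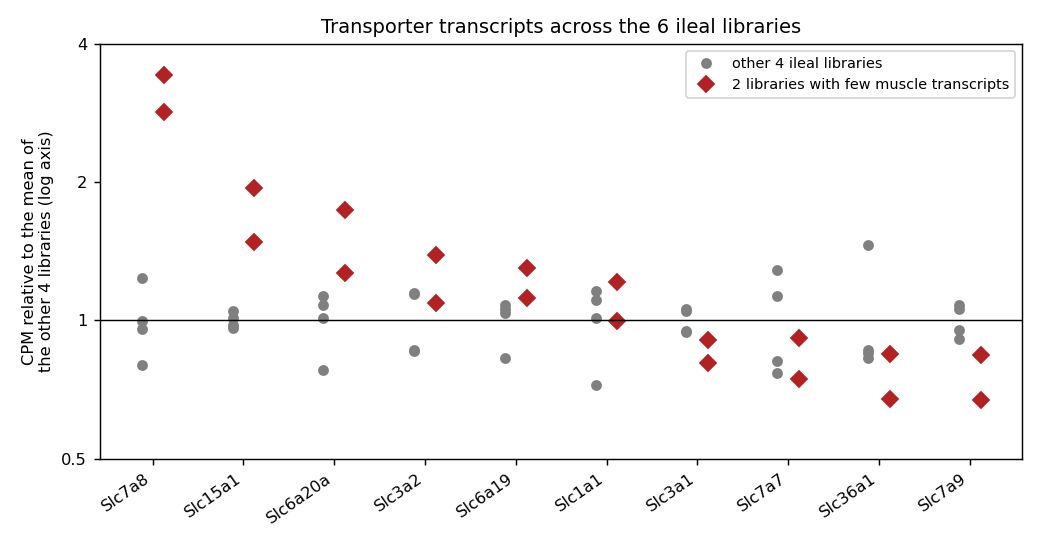
Level of each transporter in the 6 ileal libraries, relative to the mean CPM of the 4 libraries with many muscle transcripts, on a log axis. Red diamonds are the 2 libraries with few muscle transcripts and grey circles the other 4, and the mean ratio of the diamonds runs from 3.13 for Slc7a8 to 0.756 for Slc7a9.

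Genes whose profile over the 12 libraries was most like that of each transporter were found by the root mean square difference of centred log2 CPM among all genes tested. The closest matches were Cdr2 for Slc3a2 (0.113), Tfg for Slc3a1 (0.114) and Trit1 for Slc36a1 (0.114). Xpnpep1, a cytosolic aminopeptidase, was nearest to Slc7a7 (0.161), and Xpnpep2, its membrane-bound relative, was nearest to Slc6a20a (0.312). Slc43a2, a carrier of large neutral amino acids, was the second nearest to Slc1a1 (0.30). For Slc15a1 the second nearest gene was Slc6a20a (0.483), the only other member of the set to appear among the 2 nearest of any transporter. The least close first match was that of Slc15a1 with Slc5a4a (0.448), followed by Slc6a19 with Slc5a12 (0.386), a carrier of lactate whose mean was 0 CPM in both colonic groups.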

How the data were processed

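Total RNA of ileal and colonic mucosa was reverse transcribed with oligo-dT, and STAR and mm10 are named in the submitters' processing notes. The authors deposited 1 table of expected counts, not normalized, of which 93.7% were whole. The reporting summary of the study names uniquely mapped reads, UMI-tools and FeatureCounts, without a strand setting. Whether FeatureCounts made this table is not settled, since part of its values are fractional. The 92 spike-in lines without counts were left out. Samples were grouped by their labels. Counts were rounded, filtered by filterByExpr, scaled by TMM and tested with edgeR 4.0.16 in R 4.3.3 over all 16558 genes, in a model of the 4 groups, with genotype over both tissues tested beside an additive tissue term. The threshold was an adjusted p of 0.1. Alternatives used DESeq2 1.42.0, limma-voom (limma 3.58.1), other scalings, filters, sample sets and a replicate block. Exact permutation tests are two-sided and used log2(CPM + 0.5). Mean log2 levels used a prior count of 2. Figures were drawn with matplotlib 3.10.9. The steps were tested on simulated data.

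Coordinates, exon lengths and 75-base transcript windows came from GENCODE M21 (GRCm38), in which 53620 gene identifiers were found. Identifiers of Slc1a1 and Slc3a1 have another version there. The transporters and the other gene lists were chosen with earlier results of these data known. All 10 transporters are named, and from each other list up to 3 called genes with the largest change in each direction between tissues in control mice. Some genes of these lists and a motif are not reported here. The labels do not say whether ileum and colon came from the same mice. The libraries are treated as independent. Were the same 3 mice per genotype used for both tissues, the exact genotype p could not fall below 0.1. The exact tissue p of 0.005, also for relative levels and ratios, would not hold either, since tissue labels could then be exchanged only within a mouse. Depth per library was between 16749138 and 27903083 expected counts, and the lowest count of any transporter in a library was 39, in colon.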

Additional observations from a re-analysis of the deposited data

How the results depend on the processing

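In each genotype comparison 0 transporters were called under every alternative run. Between tissues 9 were called in control mice in 24 of 25 alternatives and in KO mice in 20 of 25, and 10 in the others, where Slc36a1 was added. The replicate block changed no such call. Deviations of same-numbered libraries of different groups had r from -0.69 to 0.40 (18 pairs, 5 of them over 0.1). Many of these pairs join control with KO libraries and cannot share a mouse. For ileum with colon of the same genotype, r was -0.05, 0.16 and -0.08 in control and 0.19, 0.05 and 0.25 in KO mice. These values cannot settle whether the numbers mark the same mice, and the numbers were not taken as pairs. Scaling by library size only moved the median log2 fold change of all genes between tissues by 0.22 in control and 0.27 in KO mice. Slc36a1 in KO mice passed the threshold with upper-quartile scaling (0.56, edgeR adjusted p = 0.095), library size only (0.70, adjusted p = 0.029) and only the 2 groups compared (0.44, adjusted p = 0.017), and the cause was not tested.

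Changes of sign were seen only in values that had not passed a threshold. Between genotypes over both tissues, library size only gave 0.02 for Slc6a19, 0.06 for Slc3a1 and 0.03 for Slc36a1. For Slc15a1 this comparison gave -0.10 without the 2 ileal libraries with few muscle transcripts and -0.05 with the muscle score as a term. The tissue difference of Slc36a1 in control mice was -0.11 without those libraries. With each library left out in turn, genotype values over both tissues ran from -0.16 to 0.01 for Slc6a19, -0.07 to 0.01 for Slc3a1, -0.05 to 0.10 for Slc7a9, -0.03 to 0.72 for Slc7a8, -0.19 to 0.24 for Slc15a1 and -0.12 to 0.14 for Slc36a1. The tissue difference of Slc36a1 in control mice ran from -0.11 to 0.51. The ratios of heavy to light chains were refitted with settings chosen after seeing the data, each library left out in turn, a pseudocount of 2 CPM and without both low-muscle ileal libraries, and kept their side of an exact permutation p of 0.05. Slc3a2 to Slc7a8 changed sign, to -0.01, in the last of these. Counts per library of Slc6a19 and Slc6a20a in colon were between 39 and 105, which limits their precision.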
